A study of Bos indicus with 6 samples.

Results

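The genes described here are the ligands, receptors and binding proteins of the insulin-like growth factor (IGF) system, measured by RNA-seq in the isthmus of the bovine oviduct. Members were taken by exact match of the gene symbol in the deposited isthmus table, in which IGF1 is written IGF-I. Of the 10 members sought (IGF-I, IGF2, IGF1R, IGF2R and IGFBP2 to IGFBP7), 9 had a row among the 24616 genes listed. IGF1R had no row under its symbol and was not analysed here. A row spelled IGFR1 (ENSBTAG00000021527) could not be tied to IGF1R with the sources used, so it is reported under its own spelling, was added after its values were seen and is not counted among the members.

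Both ligands signal through the type 1 receptor, a tyrosine kinase that feeds the PI3K and AKT cascade, whereas the type 2 receptor, also the mannose 6-phosphate receptor, carries IGF2 to the lysosome. Binding proteins hold the ligands outside the cell and can restrain or prolong their action, and proteases such as PAPPA release the ligand again. In the cow, the oviduct makes IGFs around the time the early embryo passes through it.

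The study asked whether the size of the ovulated follicle, and the estradiol and progesterone that go with it, alters the oviduct. Multiparous Nelore cows (Bos indicus) all received an intravaginal progesterone device (1 g) with 2 mg of estradiol benzoate on day -10, prostaglandin F2 alpha at device removal and again 6 h later, and GnRH on day 0. In the LF/LCL group (larger follicle, larger corpus luteum) the device was taken out 42 h before GnRH and an extra prostaglandin dose was given on day -10, while in the SF/SCL group (smaller follicle, smaller corpus luteum) it was taken out 30 h before GnRH. The isthmus of the oviduct on the side of the corpus luteum was collected on day 4, as whole tissue, from 3 cows per group, giving 1 library per cow. Exact ages were not given in the sources used here. The cows sequenced were picked by the authors as extremes of follicle size, corpus luteum size and steroid levels, so the groups do not stand for unselected animals.

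Levels are normalized counts, in which the size factors have evened out the depth of the libraries. The reads recovered from them numbered 25652651, 28659214 and 29836083 in LF/LCL cows 617, 79 and 527, and 34193164, 23899117 and 25472906 in SF/SCL cows 856, 97 and 489215. Every member with a row had at least 54 reads in every library, so low depth did not keep any of these 9 from being measured. Differences are log2 fold changes of SF/SCL minus LF/LCL on the log2(normalized count + 1) scale, so that a negative value means a greater level in LF/LCL. They were fitted with limma across the 15387 genes whose mean exceeded 5 and their SD, and all 9 members with a row passed this filter. No gene lengths were used, so levels are compared between cows and not between genes.

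One SF/SCL library stood apart. Its mean Euclidean distance to the other 5 libraries, over the log2 values of the genes tested, was 160 for cow 489215, against a range of 97.7 to 112 elsewhere. Its depth in reads was within the range of the others. Its size factor was the lowest, at 0.751 against 0.923 to 1.32 elsewhere. It also had the fewest genes with a read, 16944 against 17348 to 17718. The median residual SD of the genes was 0.44 log2 units with all 6 cows and 0.18 without cow 489215. Results are therefore given with and without this cow. It was singled out from the same values that are tested, and p-values without it do not account for that choice. They are not to be taken at face value.

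IGF-I, the ligand that mediates much of the action of growth hormone on tissue growth, was the member that separated the groups. Normalized counts of IGF-I (ENSBTAG00000011082) were 1305, 2151 and 1961 in LF/LCL cows 617, 79 and 527, and 904, 839.9 and 501 in SF/SCL cows 856, 97 and 489215. Each LF/LCL cow was above each SF/SCL cow, and cow 489215 had the lowest value. The group means were 1806 ± 444 in LF/LCL and 748 ± 217 in SF/SCL (SD, n = 3 each), which is 2.41 times greater in LF/LCL. The log2 fold change was -1.28 (SE 0.31, 95% interval -2.04 to -0.53) and it did not pass the threshold of 0.05 (Benjamini-Hochberg adjusted p = 0.381 in limma). An exact two-sided permutation test of this gene alone gave p = 0.1, the smallest value that 3 cows against 3 can give. Any gene whose groups do not overlap gives that value, so the test adds nothing to the separation described.

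The adjusted threshold was missed by every gene in that fit. With limma, 0 of 15387 genes passed (0%), and 1333 (8.66%) had an unadjusted p-value under 0.05, 689 of them with the greater level in LF/LCL (4.48%). IGF-I was the 1 member of 9 among these 1333, with an unadjusted p of 0.00546 from limma. Groups did not overlap for 2787 genes (18.1%), of which 1323 were greater in LF/LCL (8.60%), so that the 1 of 9 members whose groups did not overlap is close to the share among genes at large. DESeq2 on the recovered reads called 409 genes (2.66%), and IGF-I was the 1 member among them, with a log2 fold change of -1.27 (Benjamini-Hochberg adjusted p = 0.0207 in DESeq2). On simulated data DESeq2 made more false calls than limma or edgeR. The simulated counts were drawn gene by gene without a library that stood apart, so that outcome may not carry over to these data. edgeR called 0 genes and gave an unadjusted p-value under 0.05 to 1370. Over all alternatives tried, the Benjamini-Hochberg adjusted p of IGF-I in limma, edgeR or DESeq2 ran from 0.0207 to 0.999, and its log2 fold change from -1.50 to -1.02.

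IGF2, the ligand of fetal growth that is transcribed from the paternal copy in many mammalian tissues, did not follow IGF-I. Normalized counts of IGF2 (ENSBTAG00000013066) were 13526, 13989 and 16141 in LF/LCL cows 617, 79 and 527, and 11007, 13178 and 20695 in SF/SCL cows 856, 97 and 489215. The SF/SCL group held both the lowest and the highest cow, with cow 489215 at the top. Means were 14552 ± 1396 in LF/LCL and 14959.8 ± 5084 in SF/SCL (SD, n = 3 each). The log2 fold change of -0.0083 had a 95% interval of -0.67 to 0.65 (Benjamini-Hochberg adjusted p = 0.995 in limma), and its sign turned under several alternatives. Without cow 489215 it was -0.27 (95% interval -0.56 to 0.03), with both remaining SF/SCL cows below the LF/LCL cows.

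The balance of the ligands within a cow can be set out as the ratio of IGF2 to IGF-I, whose change from cow to cow does not depend on gene length. It was 10.4, 6.50 and 8.23 in LF/LCL cows 617, 79 and 527, and 12.2, 15.7 and 41.3 in SF/SCL cows 856, 97 and 489215. The groups did not overlap in this ratio. It was chosen after the values of both genes were seen, restates the IGF-I difference and was not tested.

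**Figure D1:**
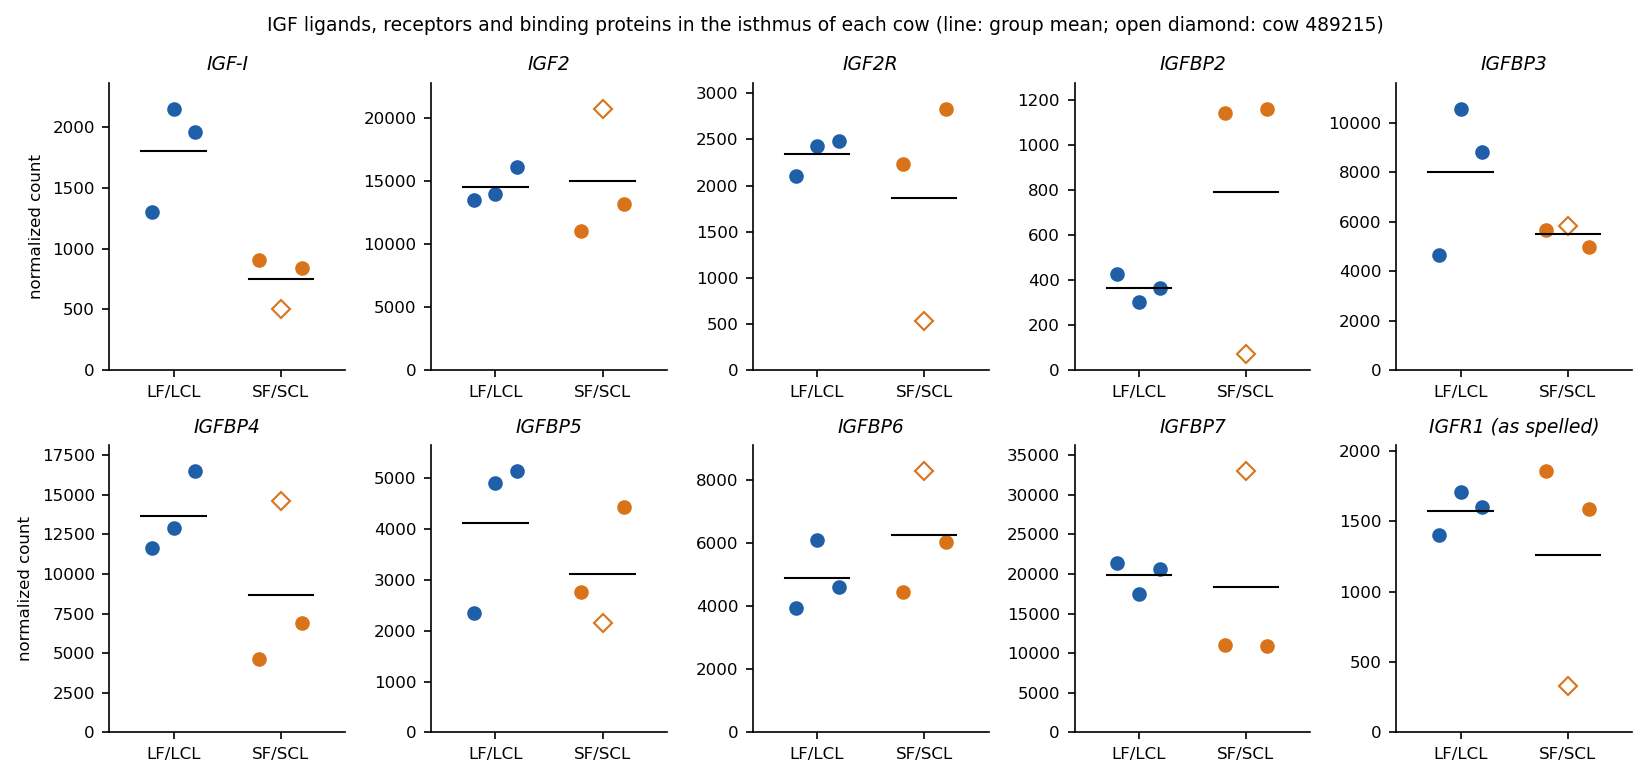
Normalized counts (vertical axes, each starting at 0) of the 9 members and of the row spelled IGFR1 in each cow, by group. Points are cows, lines are group means and the open diamond is cow 489215; in IGF-I every LF/LCL cow (1305 to 2151) lies above every SF/SCL cow (501 to 904), while IGFBP2, IGF2R and IGFR1 are lowest and IGFBP7 is highest in cow 489215.

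Of the receptors only IGF2R was measured under its symbol, and it was level between the groups apart from cow 489215. Normalized counts of IGF2R (ENSBTAG00000002402) were 2109, 2430.1 and 2485 in LF/LCL cows 617, 79 and 527, and 2237, 2829 and 538 in SF/SCL cows 856, 97 and 489215. Only cow 489215 fell outside the range of 2109 to 2829 that the other 5 cows spanned. IGF2R had a log2 fold change of -0.63 (SE 0.61) with 6 cows and 0.11 (SE 0.13) without cow 489215, with a 95% interval of -0.21 to 0.43. The row spelled IGFR1 had normalized counts of 1404, 1704 and 1600.3 in LF/LCL cows 617, 79 and 527, and 1853, 1588 and 332 in SF/SCL cows 856, 97 and 489215. It showed the same arrangement, with 5 overlapping cows and a low cow 489215, and its log2 fold change of -0.66 (SE 0.64) became 0.13 (SE 0.12) without that cow. Neither IGF2R nor this row passed the threshold with or without cow 489215 (Benjamini-Hochberg adjusted p between 0.498 and 0.859 in limma).

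Among the binding proteins, IGFBP2, which circulates widely and can bind cell-surface proteoglycans and integrins, spread widely within the SF/SCL group. Normalized counts of IGFBP2 (ENSBTAG00000005596) were 429, 304 and 365 in LF/LCL cows 617, 79 and 527, and 1145, 1161 and 71.9 in SF/SCL cows 856, 97 and 489215. SF/SCL cows 856 and 97 were nearly equal and well above all LF/LCL cows, whereas cow 489215 was below all of them. The means were 366 ± 62.5 in LF/LCL and 793 ± 624 in SF/SCL (SD, n = 3 each), and the log2 fold change of 0.34 had a 95% interval of -2.22 to 2.90, while edgeR and DESeq2 gave 1.116 to 1.119 on the same 6 cows. Without cow 489215 the SF/SCL mean was 1153, or 3.15 times that of LF/LCL, and the log2 fold change was 1.67 (SE 0.17, Benjamini-Hochberg adjusted p = 0.00301 in limma). Leaving out cow 856 or cow 97 in its place turned the sign, to -0.32 and -0.33. Over the alternatives its Benjamini-Hochberg adjusted p in limma ran up to 0.999.

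IGFBP4, mainly an inhibitor of IGF action and the best known substrate of the protease PAPPA, pointed the other way. Normalized counts of IGFBP4 (ENSBTAG00000008611) were 11668, 12879.7 and 16475 in LF/LCL cows 617, 79 and 527, and 4604, 6879 and 14626 in SF/SCL cows 856, 97 and 489215. Cow 489215 lay within the LF/LCL range, and the other SF/SCL cows lay below it. IGFBP4 had a log2 fold change of -0.81 (SE 0.43, Benjamini-Hochberg adjusted p = 0.683 in limma). Without cow 489215 it was -1.27 (SE 0.21, Benjamini-Hochberg adjusted p = 0.0122 in limma), with a mean 2.38 times greater in LF/LCL. Its sign was negative under all alternatives tried, with values from -1.27 to -0.43 and Benjamini-Hochberg adjusted p up to 0.999 in limma.

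IGFBP7, a secreted protein of vessel walls and stroma that binds IGFs weakly, divided the SF/SCL cows in the same manner. Normalized counts of IGFBP7 (ENSBTAG00000019368) were 21387, 17462 and 20610.3 in LF/LCL cows 617, 79 and 527, and 11089, 10882 and 32958 in SF/SCL cows 856, 97 and 489215. The LF/LCL cows lay between the low SF/SCL pair and the high cow 489215, so the group means were close, at 19819.9 ± 2079 and 18309.7 ± 12686 (SD, n = 3 each). With 6 cows the log2 fold change was -0.32 (SE 0.45), and it was -0.85 (SE 0.11, Benjamini-Hochberg adjusted p = 0.00608 in limma) without cow 489215. Over the alternatives the log2 fold change of IGFBP7 stayed negative, from -0.85 to -0.047, and the Benjamini-Hochberg adjusted p in limma reached 0.999. IGFBP7 overlaps POLR2B in the RefSeq gene table of another assembly (NIAB-ARS_B.indTharparkar), and use of strand in the counting was not stated, so reads of the overlap may be assigned uncertainly.

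The ratio of IGFBP4 to IGFBP2, also chosen after the values were seen and not tested, shows these opposite arrangements in a single figure per cow. It was 27.2, 42.4 and 45.2 in LF/LCL cows 617, 79 and 527, and 4.02, 5.93 and 203 in SF/SCL cows 856, 97 and 489215. SF/SCL cows thus lay on both sides of the LF/LCL cows, far from each other.

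The other binding proteins had overlapping groups with or without cow 489215. IGFBP3 (ENSBTAG00000003994), the main carrier of IGFs in blood, had 4674, 10558 and 8838 in LF/LCL cows 617, 79 and 527, and 5663, 4984 and 5822 in SF/SCL cows 856, 97 and 489215. Its spread lay in the LF/LCL group, where cow 617 was below all SF/SCL cows, and cow 489215 did not stand out. IGFBP5 (ENSBTAG00000007062), which binds to extracellular matrix, ranged from 2343 to 5137 in LF/LCL and from 2149 to 4433 in SF/SCL, again with cow 617 at the low end of its group. IGFBP6 (ENSBTAG00000021467), which prefers IGF2 over IGF-I, ranged from 3931 to 6083 in LF/LCL and from 4437 to 8272 in SF/SCL, with cow 489215 highest. Their log2 fold changes were -0.47 (SE 0.32), -0.39 (SE 0.40) and 0.33 (SE 0.29), and -0.51, -0.15 and 0.11 without cow 489215, none of them past the threshold.

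Without cow 489215, limma called 2827 of 15495 genes (18.2%), and 4 of the 9 members were among them. The 3 greater in LF/LCL were IGF-I, IGFBP4 and IGFBP7, against 7.92% of genes in that direction, and the 1 greater in SF/SCL was IGFBP2, against 10.3% of genes. IGF-I then had a log2 fold change of -1.02 (SE 0.21, Benjamini-Hochberg adjusted p = 0.0240 in limma). Groups did not overlap for 5 of the 9 members (IGF-I, IGF2, IGFBP2, IGFBP4 and IGFBP7), against 52.0% of all genes, so that count is near the share of genes at large. The median log2 fold change of the 9 members was -0.39 with 6 cows and -0.27 without cow 489215, against -0.016 and -0.00092 over all genes tested. These calls compare 3 LF/LCL cows with 2 SF/SCL cows. Those 2, cows 856 and 97, differed from all other cows in OVGP1 (271794 and 325158 against 287 to 1949.9). They did so too in HOXA10 (671 and 719.6 against 2094 to 5991). The part of cell makeup or position along the tract in these calls was not tested.

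**Figure D2:**
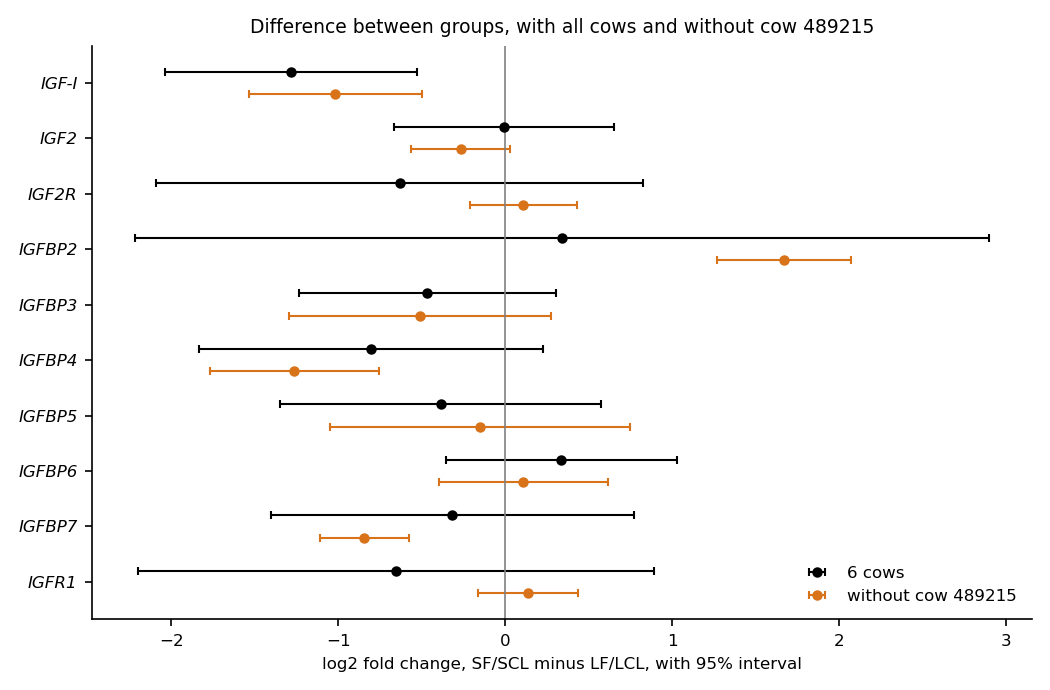
Log2 fold change (SF/SCL minus LF/LCL, horizontal axis) from limma with its 95% interval for the 9 members and the row spelled IGFR1, with all 6 cows (black) and without cow 489215 (orange). With 6 cows the interval of IGF-I alone (-2.04 to -0.53) stays clear of 0; without cow 489215 those of IGFBP2, IGFBP4 and IGFBP7 do too.

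Within the IGF system, cow 489215 was low in some genes and high in others. Its log2 value minus the mean of the other 5 cows was -2.98 for IGFBP2, -2.29 for IGFR1, -2.16 for IGF2R and -1.41 for IGF-I. It was 1.08 for IGFBP7, 0.74 for IGFBP6, and 0.62 for both IGF2 and IGFBP4. Over all genes tested the same difference had a median of 0.02, a 25th and a 75th percentile of -0.89 and 0.62, and a 5th and a 95th of -2.55 and 1.32. IGFBP2 thus lay below the 5th percentile of genes, and IGF-I, IGF2R and IGFR1 below the 25th. IGFBP6 and IGFBP7 were above the 75th percentile, and IGF2 and IGFBP4 were at it.

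**Figure D3:**
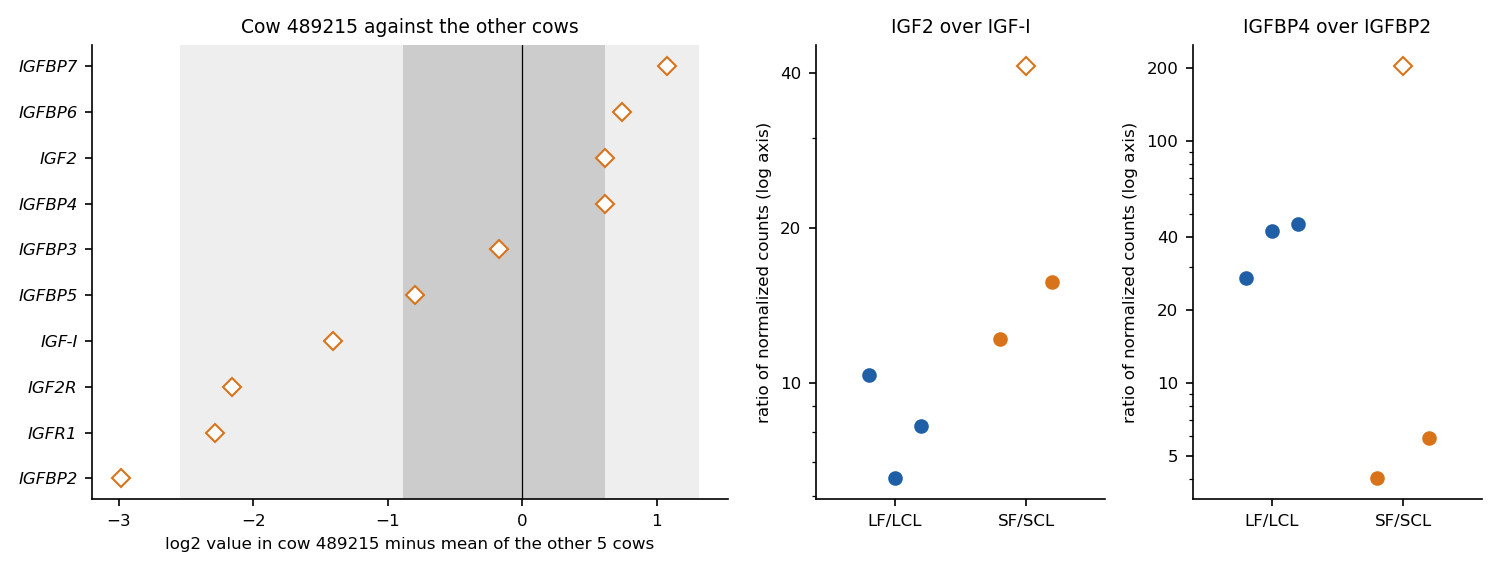
Left, log2 normalized count in cow 489215 minus the mean of the other 5 cows for each gene, over bands from the 25th to the 75th percentile (dark grey, -0.89 to 0.62) and from the 5th to the 95th (light grey, -2.55 to 1.32) of all genes tested. Centre and right, the ratios of IGF2 to IGF-I and of IGFBP4 to IGFBP2 in each cow (log axes, open diamond for cow 489215); the first is 6.50 to 10.4 in LF/LCL and 12.2 to 41.3 in SF/SCL, and the second places SF/SCL cows on both sides of the LF/LCL cows.

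The isthmus wall holds muscle, stroma and epithelium, and in whole tissue fewer cells of a type and less RNA per cell cannot be told apart. Marker levels moved with several members. The summed normalized counts of the 7 fibroblast markers with a row were 309700.0, 384115 and 375167 in LF/LCL cows 617, 79 and 527, and 159847, 166108 and 231035 in SF/SCL cows 856, 97 and 489215, without overlap between groups. All 7 had lower log2 values in SF/SCL, with a median of -0.86, 4 at an unadjusted p under 0.05 from limma and 0 past the threshold, and 6 passed without cow 489215. Over all genes, and so beside the counts of each marker list here, these shares were 8.66% at an unadjusted p under 0.05 and 18.2% past the threshold without cow 489215. COL3A1 was the most abundant of them. None was at 0.

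The 7 smooth muscle markers with a row summed to 825682, 750401 and 705137 in LF/LCL cows 617, 79 and 527, and to 320565, 386979 and 1217820.0 in SF/SCL cows 856, 97 and 489215. As in IGFBP7, cow 489215 was highest and cows 856 and 97 were lowest. Not every marker did so, since in MYH11 cow 489215 (116653) was below the LF/LCL cows (137623 to 191119) and cow 97 (122911), and in LMOD1 it was within the LF/LCL range. The median log2 fold change was -0.47 with 6 cows, none of the 7 passing, and -1.03 without cow 489215, when 6 of 7 passed, against 18.2% of all genes. ACTA2 was the most abundant, and none was at 0.

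Epithelial markers did not share 1 arrangement over the cows. The 8 secretory epithelium markers summed to 38909.5, 30596 and 29474 in LF/LCL cows 617, 79 and 527, and to 315777, 375982 and 56302 in SF/SCL cows 856, 97 and 489215. Most of that sum was OVGP1, the oviduct-specific glycoprotein, with 271794 and 325158 in cows 856 and 97 against 287 to 1949.9 in the other 4. Without OVGP1 the other 7 summed to 38623, 28814 and 27525 in LF/LCL cows 617, 79 and 527, and to 43984, 50825 and 55572 in SF/SCL cows 856, 97 and 489215, so that cow 489215 was then highest, as it was for EPCAM, KRT8, KRT7 and MUC1. PAX8 went the other way, like OVGP1, with 469 in cow 489215, 503 to 663 in LF/LCL and 1441 and 1437 in cows 856 and 97, and CDH1 was lower in all SF/SCL cows. Of the 7 in the fit, 5 had an unadjusted p under 0.05 from limma with the greater level in SF/SCL and 1, CDH1, with the greater level in LF/LCL, and without cow 489215 these counts past the threshold were 3 and 1. The 8 ciliated epithelium markers summed to 33837, 30633 and 26296 in LF/LCL cows 617, 79 and 527, and to 43830.0, 48177 and 26196 in SF/SCL cows 856, 97 and 489215, CAPS being the most abundant and PIFO listed at 0. Of 6 in the fit, 5 were greater in SF/SCL, 2 of them at an unadjusted p under 0.05 from limma, and 5 passed without cow 489215.

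Mesothelium markers (5, most abundant MSLN) summed to between 2452 and 3483 in the LF/LCL cows and cow 489215, and to 26249 and 26728 in cows 856 and 97. MSLN and WT1 carried these sums, while LRRN4 went the other way, with 283, 412 and 175 in LF/LCL cows 617, 79 and 527 against 3.798, 16.3 and 5.33 in SF/SCL cows 856, 97 and 489215. None of the 5 passed the filter with 6 cows, and without cow 489215 WT1 and LRRN4 did, with 2.73 and -4.91 (Benjamini-Hochberg adjusted p = 0.000534 and 0.00540 in limma). Endothelium markers (5 with a row, most abundant VWF) summed to between 9839 and 14554, with 1 of 5 at an unadjusted p under 0.05 from limma, and leukocyte markers (7, most abundant PTPRC) to between 1496 and 2454, with none. Both sums overlapped between groups, the endothelium sum only through cow 489215 (13326). Endothelium sums of cows 856 and 97 (9839 and 10161) lay below those of the LF/LCL cows (11244 to 14554). Without cow 489215 all 5 endothelium markers were lower in SF/SCL, 1 of them past the threshold. Erythrocyte markers, led by AHSP, summed to 25.3 or less, and markers of ovary and corpus luteum, led by STAR, to between 235 and 461, with FSHR at 0 in all libraries. Of the uterine and posterior HOX list, HOXA10 made nearly all of the sum, which was 5991 of 6054 in cow 489215, 671 of 681 in cow 856 and 719.6 of 724 in cow 97, and 2094 to 2451 for HOXA10 in LF/LCL; HOXA13 was at 0 in all libraries. HOXA11 and HOXD10 were also highest in cow 489215, with 20 and 27 reads against 0 to 7 and 1 to 6 elsewhere. Muscle, stromal and epithelial markers were thus present in all libraries, but they do not fix the position along the tract, and OVGP1 and these HOX genes divided the SF/SCL cows. The part of position along the tract in the group differences was not tested.

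**Figure D4:**
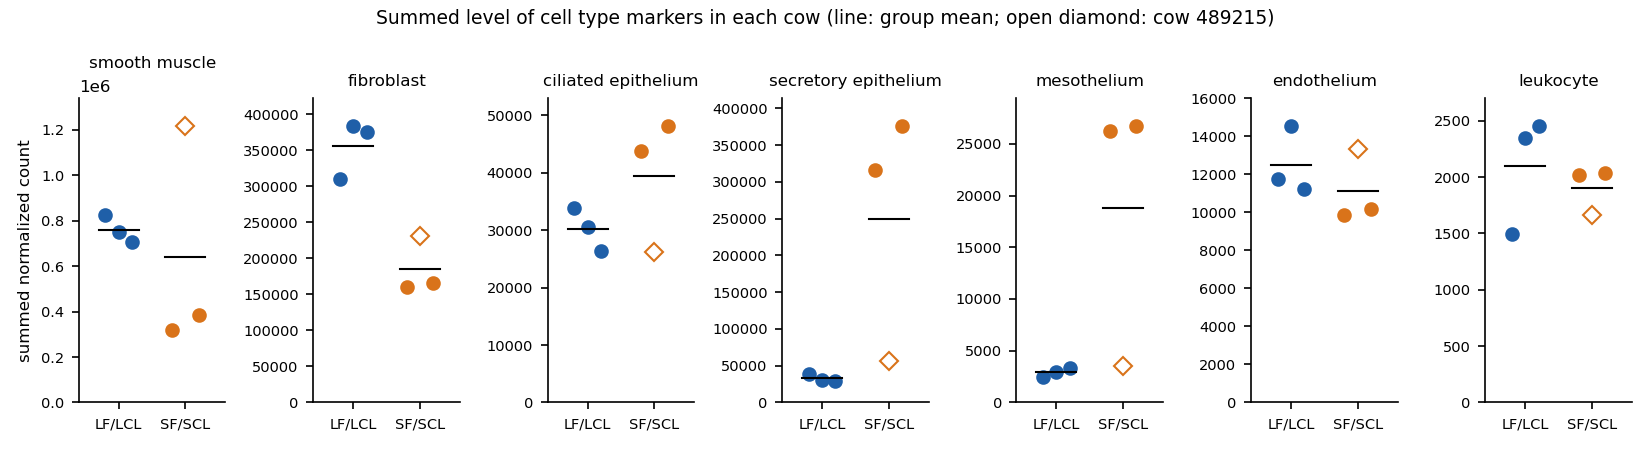
Summed normalized counts (vertical axes, each starting at 0) of the markers of 7 cell types in each cow, with group means as lines and cow 489215 as an open diamond. Fibroblast sums do not overlap between groups, smooth muscle sums place cow 489215 above and cows 856 and 97 below the LF/LCL cows, and secretory and mesothelium sums, carried by OVGP1 and by MSLN and WT1, are high in cows 856 and 97.

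Set against these sums, the 4 members called without cow 489215 gave the following values, chosen after the data were seen and not tested. Per 1000 summed fibroblast counts, IGF-I had 4.21, 5.60 and 5.23 in LF/LCL cows 617, 79 and 527, and 5.66, 5.06 and 2.17 in SF/SCL cows 856, 97 and 489215. The groups overlapped in this ratio, with cow 489215 alone low. Per 1000 summed smooth muscle counts, IGFBP7 had 25.9, 23.3 and 29.2 in LF/LCL cows 617, 79 and 527, and 34.6, 28.1 and 27.1 in SF/SCL cows 856, 97 and 489215. The 6 cows were close together in this ratio, unlike in the IGFBP7 level. They were further apart per 1000 fibroblast counts, with 45.5 to 69.1 in LF/LCL, 69.4 and 65.5 in cows 856 and 97, and 142.7 in cow 489215. Per 1000 ciliated epithelium counts IGFBP7 was 570.0 to 783.8 in LF/LCL, 253.0 and 225.9 in cows 856 and 97, and 1258 in cow 489215. IGFBP4 per 1000 smooth muscle counts was 14.1 to 23.4 in LF/LCL and 12.01 to 17.8 in SF/SCL, overlapping as well, and per 1000 fibroblast counts it was 33.5 to 43.9 and 28.8 to 63.3. Per 1000 ciliated epithelium counts IGFBP4 also overlapped, with 344.8 to 626.5 and 105.0 to 558.3. Per 1000 secretory epithelium counts it did not, with 299.9 to 559.0 in LF/LCL and 14.58 to 259.8 in SF/SCL. Without OVGP1 these were 302.1 to 598.6 and 104.7 to 263.2. IGFBP2 per 1000 ciliated epithelium counts was 9.93 to 13.9 in LF/LCL, 26.1 and 24.1 in cows 856 and 97, and 2.74 in cow 489215. Per 1000 secretory epithelium counts IGFBP2 was 9.94 to 12.4 in LF/LCL and 1.28 to 3.63 in SF/SCL. The second of these rested on OVGP1, since per 1000 counts of the other 7 secretory markers IGFBP2 was 10.6 to 13.2 in LF/LCL, 26.0 and 22.8 in cows 856 and 97, and 1.29 in cow 489215. Without CAPS, the most abundant ciliated marker, cows 856 and 97 were less far above LF/LCL, at 42.0 and 40.5 against 28.0 to 37.4. IGF-I was greater in LF/LCL relative to either epithelial list, with 38.6 to 74.6 against 17.4 to 20.6 per 1000 ciliated epithelium counts. Both epithelial sums were themselves higher in cows 856 and 97, which lowers the ratio in those cows. Per 1000 smooth muscle counts the groups overlapped for IGF-I, with 1.58 to 2.87 in LF/LCL and 0.411 to 2.82 in SF/SCL. The part of cell makeup in the member results was not tested.

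Other genes of the IGF pathway were followed in 6 lists, with 61 rows, of which 55 passed the filter. With 6 cows 44 of the 55 had a greater level in LF/LCL and 11 in SF/SCL, with a median log2 fold change of -0.32. None passed the adjusted threshold with limma, and 4 of 55 had an unadjusted p under 0.05, all greater in LF/LCL, against 8.66% of all genes in either direction and 4.48% in that one. Without cow 489215 the directions were 28 and 27, with a median of -0.010, and 8 of 55 passed, 4 in each direction, against 18.2% of all genes. The uneven count of directions thus rested on cow 489215. Groups did not overlap for 11 of the 55 with 6 cows, against 18.1% of all genes. Without cow 489215 they did not overlap for 30 of the 55, against 52.0%, so both counts were near the share of genes at large.

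Of 6 further carriers and related binding proteins, 3 passed the filter. IGFALS, the acid-labile subunit that joins IGF and IGFBP3 or IGFBP5 in blood, had 94.2, 83.5 and 70.3 in LF/LCL cows 617, 79 and 527, and 46.3, 55.3 and 65.2 in SF/SCL cows 856, 97 and 489215. The groups did not overlap, and its log2 fold change was -0.57 (SE 0.33, Benjamini-Hochberg adjusted p = 0.725 in limma). IGFBP1, a binding protein of liver and decidua, had 0 to 2 reads per library, under the limit of 3 reads that a count of 0 allows, so no difference was detectable at this depth. KAZALD1 and CRIM1, both with an IGFBP-type domain, had log2 fold changes of -0.67 (SE 0.50) and -0.32 (SE 0.42), and without cow 489215 KAZALD1 fell to -0.25 and CRIM1 turned to 0.17. ESM1 (endocan), named after its values were seen, was removed by the filter because its SD exceeded its mean. It had 2139.7 and 1848 in SF/SCL cows 856 and 97 and 33.4 to 92.1 in the other 4 cows, the arrangement seen in OVGP1.

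Of 10 IGFBP proteases and their inhibitors sought, 7 had a row and passed the filter, and all 7 had a negative log2 fold change with 6 cows (median -0.67), while 2 were at an unadjusted p under 0.05 from limma, against 8.66% of all genes. Without cow 489215 only 4 of the 7 were negative, since PAPPA2, ADAM28 and STC2 turned, while the median was -0.70. PAPPA, the protease that cuts IGFBP4, had 293, 525 and 98.4 in LF/LCL cows 617, 79 and 527, and 296, 17.3 and 7.99 in SF/SCL cows 856, 97 and 489215. Cow 856 matched LF/LCL cow 617, so the groups overlapped, and the log2 fold change of -2.76 had a wide SE of 1.36 (Benjamini-Hochberg adjusted p = 0.647 in limma). It was -1.75 without cow 489215 and from -1.507 to -1.488 in edgeR and DESeq2. STC1, stanniocalcin, an inhibitor of PAPPA, had 422, 576 and 407 in LF/LCL cows 617, 79 and 527, and 262, 307 and 305 in SF/SCL cows 856, 97 and 489215. The groups did not overlap and cow 489215 was not apart from its group. The log2 fold change of STC1 was -0.67 (SE 0.24) and -0.70 without cow 489215, with Benjamini-Hochberg adjusted p of 0.503 and 0.0559 in limma, and up to 0.999 over the alternatives. ADAM12, a metalloprotease that can cut IGFBP3 and IGFBP5, had 106 to 162 in LF/LCL and 11.98 to 67.6 in SF/SCL, with a log2 fold change of -2.14 (SE 0.64), or -1.57 without cow 489215. HTRA1, a secreted serine protease, had 2410.2 to 3243 in LF/LCL, 1261 and 1628 in SF/SCL cows 856 and 97 and 2832 in cow 489215, and passed without that cow, with -0.93 (Benjamini-Hochberg adjusted p = 0.0153 in limma, and up to 0.999 over the alternatives).

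Insulin itself (INS) had 0 reads in all 6 libraries, although it lies next to IGF2 in the RefSeq gene order of that assembly, and INSR had no row under its symbol. Of the 12 adaptors and related genes in the fit, 11 had a negative log2 fold change (median -0.31), 2 of them at an unadjusted p under 0.05 from limma, against 8.66% of all genes. Without cow 489215 these were 8 of 12, with a median of -0.083. GRB10, an imprinted adaptor that binds the IGF and insulin receptors and dampens their signal, had 1031, 1306 and 948 in LF/LCL cows 617, 79 and 527, and 582, 534 and 446 in SF/SCL cows 856, 97 and 489215. Its groups did not overlap, and the spread within each was small. GRB10 had a log2 fold change of -1.07 (SE 0.22, Benjamini-Hochberg adjusted p = 0.367 in limma), which passed without cow 489215 at -0.96 (Benjamini-Hochberg adjusted p = 0.0122 in limma) and in DESeq2 at -1.07 (Benjamini-Hochberg adjusted p = 0.00202), while other alternatives gave up to 0.999. IRS4, a docking protein, had 212 to 516 in LF/LCL and 16.0 to 200.5 in SF/SCL, a log2 fold change of -2.25 (SE 0.93) that was -1.18 without cow 489215 and from -1.745 to -1.741 in edgeR and DESeq2.

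The principal docking proteins of the receptors followed IGFBP2 and not IGF-I. IRS1 had 560.0, 531 and 672 in LF/LCL cows 617, 79 and 527, and 900.1, 997 and 181 in SF/SCL cows 856, 97 and 489215. IRS2 had 137, 168 and 157 in LF/LCL cows 617, 79 and 527, and 258, 261 and 17.3 in SF/SCL cows 856, 97 and 489215. In both genes cows 856 and 97 were above all LF/LCL cows and cow 489215 was far below them. The log2 fold changes were -0.10 (SE 0.65) and -0.52 (SE 1.04) with 6 cows, and turned to 0.70 and 0.75 without cow 489215 (Benjamini-Hochberg adjusted p = 0.0221 and 0.0399 in limma, and up to 1.0 and 0.999 over the alternatives). The phosphatases PTPN1 and PTPN11, which act on these receptors and their downstream signal, had -0.48 (SE 0.29) and -0.71 (SE 0.57), and -0.18 and -0.022 without cow 489215.

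The PI3K, AKT, mTOR and FOXO list had 22 rows in the fit, of which 17 had a negative log2 fold change (median -0.27), none at an unadjusted p under 0.05 from limma. Without cow 489215 only 7 were negative and the median was 0.15. RPS6KB1, the S6 kinase, had 881 to 921 in LF/LCL and 571 to 844 in SF/SCL, without overlap, with a log2 fold change of -0.31 (SE 0.22), or -0.13 without cow 489215. RHEB, the activator of mTOR, and RICTOR, a subunit of mTOR complex 2, had 0.52 (SE 0.33) and 0.26 (SE 0.18), and 0.19 and 0.36 without cow 489215, which was alone in its high RHEB level (1546 against 602 to 848). Outside the rule for named genes, PIK3CB and AKT1 passed without cow 489215, with 0.80 and -0.43 (Benjamini-Hochberg adjusted p = 0.0157 and 0.0219 in limma, and up to 0.999 over the alternatives), and they are named after their values were seen.

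Growth hormone signalling, which drives IGF-I transcription in liver, had 6 genes, 5 with a negative log2 fold change (median -0.40) and none at an unadjusted p under 0.05 from limma. GHR, the growth hormone receptor, had 474, 639 and 800.2 in LF/LCL cows 617, 79 and 527, and 389, 456 and 393 in SF/SCL cows 856, 97 and 489215. As in IGF-I, each LF/LCL cow was above each SF/SCL cow, though cows 617 and 97 were nearly equal. The log2 fold change of GHR was -0.60 (SE 0.26, Benjamini-Hochberg adjusted p = 0.597 in limma) and -0.56 without cow 489215. STAT5A and STAT5B, the transcription factors of the pathway, had -0.51 (SE 0.31) and -0.68 (SE 0.45), and -0.19 and -0.16 without cow 489215. Their feedback inhibitor CISH had 0.30 (SE 0.36), which turned to -0.053 without that cow. SOCS2, named after its values were seen, had 2988 to 3166 in LF/LCL, 1623 and 1499.9 in cows 856 and 97 and 6533 in cow 489215, the arrangement of IGFBP7, and passed without that cow at -0.98 (Benjamini-Hochberg adjusted p = 0.00251 in limma, and up to 0.999 over the alternatives).

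Partners of IGF2 RNA and of lysosomal sorting had 5 genes in the fit, 4 of them with a positive log2 fold change (median 0.15), or 3 without cow 489215, and none at an unadjusted p under 0.05 from limma. M6PR, the smaller mannose 6-phosphate receptor, which does not bind IGF2, had 3717 to 4175 in LF/LCL and 4357 to 6003 in SF/SCL, without overlap. Its log2 fold change was 0.31 (SE 0.19), or 0.16 without cow 489215. With 6 cows this was in the direction opposite to that of IGF2R. Without cow 489215 both were in the same direction, IGF2R having 0.11. GNPTAB, which makes the mannose 6-phosphate tag, had 2269.6 to 2616 in LF/LCL, 4402 and 3466 in cows 856 and 97 and 1449.9 in cow 489215, and passed without that cow at 0.70 (Benjamini-Hochberg adjusted p = 0.0166 in limma, and up to 0.999 over the alternatives). NAGPA, which uncovers the tag, had 0.15 (SE 0.22), and 0.20 without cow 489215. IGF2BP2, an RNA-binding protein named for IGF2 transcripts, had -0.54 (SE 0.29), while IGF2BP1 had 0 reads in all libraries and H19 had no row.

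**Figure D5:**
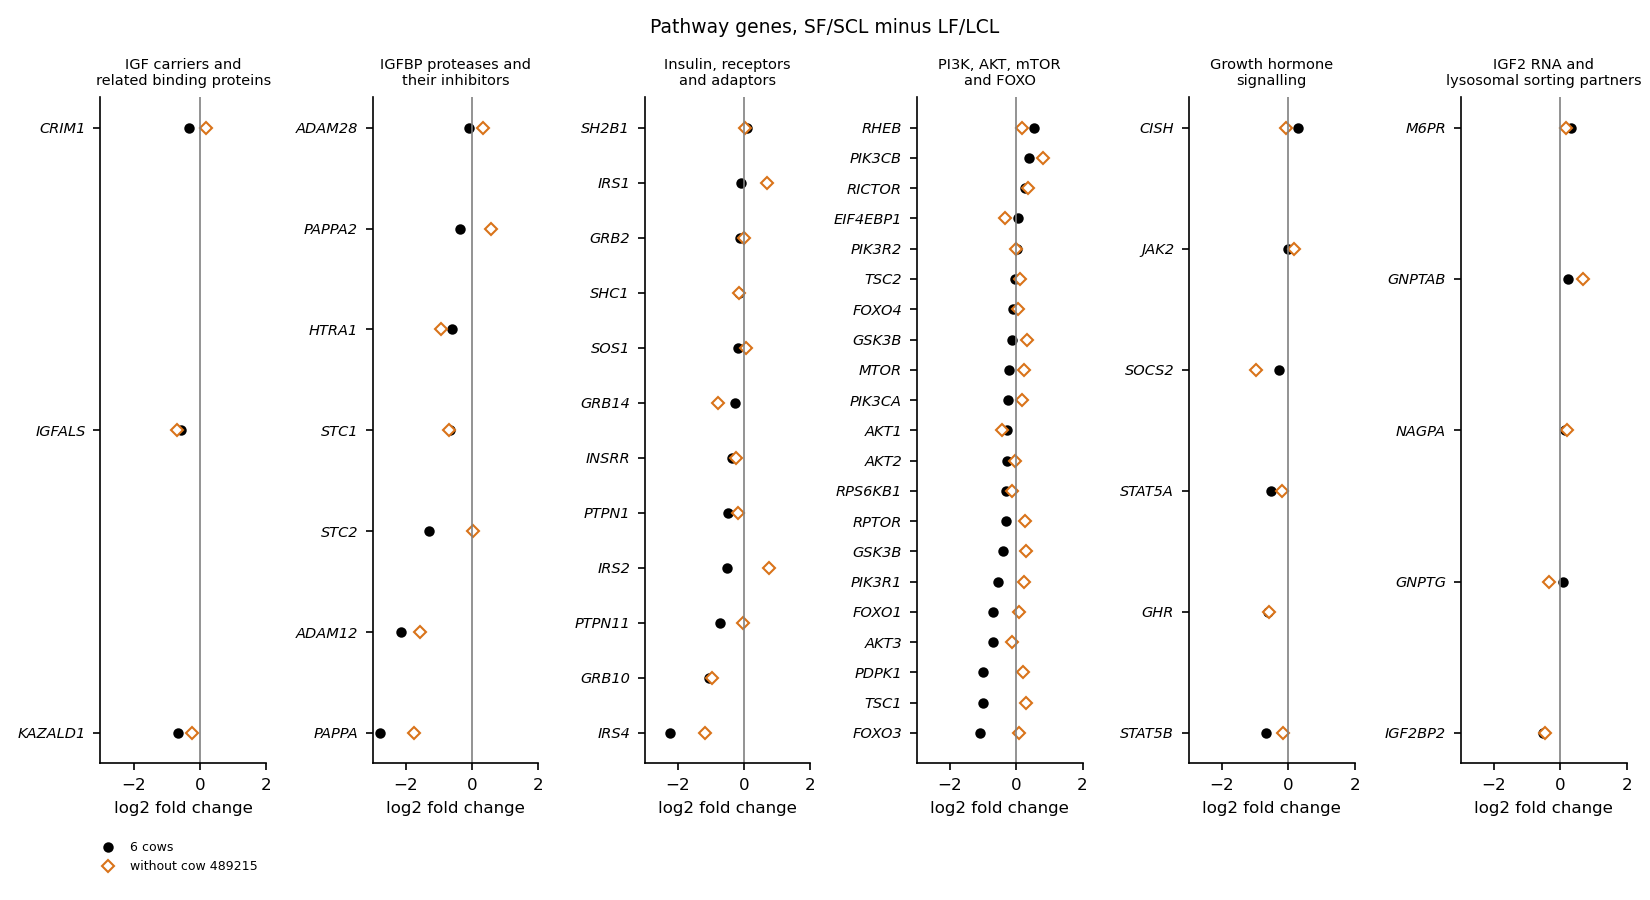
Log2 fold changes (SF/SCL minus LF/LCL, horizontal axes) from limma of 54 of the 55 pathway rows that passed the filter, by list, with all 6 cows (black points) and without cow 489215 (open orange diamonds). GRB10, STC1, IGFALS and GHR keep nearly the same value in both, whereas IRS1, IRS2 and much of the PI3K list move to the right without that cow.

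Genes whose levels tracked the ligands most closely were found by Pearson's r of log2 values over the 6 cows, as a description. For IGF-I the highest were snosnR60_Z15 (r = 0.997), FBN1 (0.996), DENND6A (0.994), HMGXB4 (0.991) and ZDHHC17 (0.990). The first of these had only 15.98 to 26.35 normalized counts, a low level at which counting error is larger. FBN1, fibrillin 1 of elastic microfibrils, had 6721, 9485 and 8848 in LF/LCL cows 617, 79 and 527, and 5582, 5677 and 4063 in SF/SCL cows 856, 97 and 489215, the same order of groups and the same lowest cow as IGF-I. For IGF2 they were THAP3 (0.998), ISOC1 (0.993), SFRP2 (0.991), MPV17 (0.991) and C5orf28 (0.990). SFRP2, a secreted modulator of WNT signalling, had 45694 in cow 489215 and 14228 to 29273 elsewhere, so that cow was its highest, as it was for IGF2. Among 13979 genes compared, 107 (0.765%) exceeded an r of 0.95 with IGF-I and 127 (0.909%) with IGF2, each r being taken over 6 points from the same libraries.

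As for position, IGFBP2 lies next to IGFBP5 and IGFBP3 next to IGFBP1 in the RefSeq gene order of NIAB-ARS_B.indTharparkar. The neighbours did not share their arrangement over cows. IGFBP2 was highest in cows 856 and 97 while IGFBP5 was highest in cows 79 and 527, and IGFBP3 was plentiful in all cows while IGFBP1 had 2 reads at most.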

How the data were processed

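RNA of whole isthmus tissue was sequenced as paired reads from poly(A) libraries. Per the study's methods, the authors filtered reads with seqyClean, mapped them to masked UMD3.1 with TopHat2 2.0.8 and Bowtie2 2.1.0, counted genes with HTSeq 0.5.4p2 and divided by DESeq 1.12.1 size factors. The deposited signal values are these normalized counts. All values (100%) were whole multiples of 1 read within 0.1, so reads were recovered. Counting error is small at this depth for the members, which had at least 54 reads in every library. It is larger for genes with few reads, such as PAPPA and ADAM12 with 6 and 9 in cow 489215. Log2(value + 1) was fitted with limma 3.58.1 (eBayes with trend and robust) in R 4.3.3, with Benjamini-Hochberg adjustment over all genes and a threshold of 0.05. The fits were tested on simulated data, where the share of false calls was slightly above the threshold in limma and edgeR and far above it in DESeq2. The simulated counts held no library that stood apart, so these shares may not carry over to the data at hand. Alternatives were pseudocounts 0.5 and 5, other filters, TMM rescaling, plain eBayes, edgeR 4.0.16 and DESeq2 1.42.0 on recovered reads, and leaving out each cow. Named genes were the members, in each pathway list the 4 with the smallest unadjusted p plus 9 chosen by role, the most abundant marker of each list, markers at 0, and the 5 genes most like each ligand. Members and lists were chosen with earlier results of these data known.

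One gene of the PI3K, AKT, mTOR and FOXO list stayed in the list counts and medians but is not reported here by name or drawn.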

Additional observations from a re-analysis of the deposited data

How the results depend on the processing

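The 9 members were refitted under 15 alternatives each, 135 values in all. Direction and side of the threshold were kept in 121, the threshold was newly passed in 5, and the sign turned in 9. Genes called were 0 with limma and 409 with DESeq2, and from 0 to 2827 when 1 cow was left out, the 2827 being without cow 489215. Members past the threshold were 0 with limma, 1 with DESeq2 and from 0 to 4 when 1 cow was left out. The log2 fold change of IGF-I was -1.27 in DESeq2. When 1 cow was left out it ran from -1.50 to -1.02 for IGF-I, -0.33 to 1.67 for IGFBP2, -1.27 to -0.43 for IGFBP4, -0.85 to -0.047 for IGFBP7, -0.27 to 0.19 for IGF2, -1.09 to 0.11 for IGF2R and -1.11 to 0.13 for IGFR1. IGF2 also turned to 0.024 in edgeR with TMM, 0.040 in edgeR with DESeq2 size factors and 0.040 in DESeq2. Among 28 pathway genes, 393 of 417 values kept direction and side. With 1 cow left out the range crossed 0 for CRIM1 (-0.59 to 0.17), CISH (-0.053 to 0.53), GNPTAB (-0.10 to 0.70), IRS1 (-0.53 to 0.70), IRS2 (-1.17 to 0.75) and SOCS2 (-0.98 to 0.081). In edgeR with TMM, edgeR with DESeq2 size factors and DESeq2, IRS1 was 0.24, 0.24 and 0.24, IRS2 was 0.22, 0.22 and 0.22, and SOCS2 was 0.039, 0.063 and 0.064. The cause was not tested. TMM rescaling moved the median log2 fold change of all genes by -0.010. No alternative left out more than 1 cow. Depth limits IGFBP1, INS and IGF2BP1, which had too few reads for a comparison.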
